A study of Caenorhabditis elegans with 5 samples.

Results

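Gene expression in *Caenorhabditis elegans* raised under hypergravity was compared with that in worms kept at 1 G at Tsukuba space center. The comparison used 2 of the 5 arrays of the study, 1 for each group, picked by their labels, and it covered 10076 of the 17118 genes that the arrays name. Both groups were wild-type worms of the Bristol N2 strain at mixed stages, which had grown at 20 °C for 10 days in CeMM, a chemically defined liquid medium, and each gave RNA from 100000 worms. The hypergravity group carries 3 G in one label and 10 G in another, so its gravity is given here without a value. The labels name Tsukuba as the place of the control and name no place for the hypergravity worms. The 3 other arrays held a second 1 G control from the operation site of the mission, a space flight group and a clinorotation group, which was turned on the ground as a model of microgravity. Their values stand beside the comparison only as context.

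Hermaphrodites of *C. elegans* make sperm first and oocytes later in a tubular gonad, and the intestine of the adult secretes yolk proteins that the oocytes take up. The epidermis secretes the cuticle, a layered coat of collagens that is replaced at each moult and that gives the body its shape. Neurons signal through classical transmitters and through a large set of peptides cut from longer precursors. In RNA from whole worms, fewer cells of a type and less RNA per cell cannot be told apart, and neither can a different mix of stages.

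Each group had 1 array, so no difference below has a replicate, a standard deviation or a test, and genes were counted by the size of the difference alone. Quantile scaling brought the 5 arrays to a common distribution, and signals are given in its arbitrary units. A floor of 24.9, the 40th percentile over all probe sets and arrays, replaced every lower signal, and it stands in for a background limit that the values do not give. As deposited, the hypergravity array was the brighter one, with a median signal of 49.2 against 38.8. All differences are therefore relative to the whole set of genes, whose median difference is 0 after scaling and 0.43 (log2) in the signals as deposited. Without scaling the medians of 54 gene lists change sign. These include every list described below as lower other than body shape collagens, epidermal antimicrobial genes and genes of glutamate signalling. Of the measured genes, 3676 rest on probe sets that may bind more than 1 transcript. Markers of body wall muscle (12 of 13 measured), neurons (14 of 17), intestine (16 of 16), hypodermis (10 of 11) and oocytes (13 of 13) were above the floor on average, whereas 3 of 10 markers of early embryos and 1 of 13 markers of male somatic cells were measured.

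Against the Tsukuba control, 71 genes read at least 2-fold higher under hypergravity, which is 0.705% of those measured, and 159 read at least 2-fold lower, which is 1.58%. Higher genes thus made up 30.9% of the genes past 2-fold, and this split became 49.1% when each array was divided by its median instead and 95.9% without scaling. At 1.5-fold the counts were 685 genes higher (6.8%) and 933 lower (9.26%). These shares are the background for every list count at 1.5-fold below, and 0.705% and 1.58% for those at 2-fold. The 2 controls, both at 1 G, differed more: relative to Tsukuba, the operation-site control had 446 genes (4.43%) up by 2-fold or more and 411 (4.08%) down by as much. The SD of the log2 difference over all genes was 0.43 for hypergravity and 0.62 for the operation-site control, each against the same Tsukuba array. Differences were larger among dim genes. Among the 2519 dimmest genes 39 were at least 2-fold higher and 52 lower, against 4 and 15 among the 2519 brightest. On the dimmer of the 2 arrays, 14 of the 71 higher genes and 22 of the 159 lower genes were at the floor. In 14 of the 71 and 30 of the 159, the operation-site control lay as far from the Tsukuba control as hypergravity did, in the same direction, or farther.

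**Figure D1:**
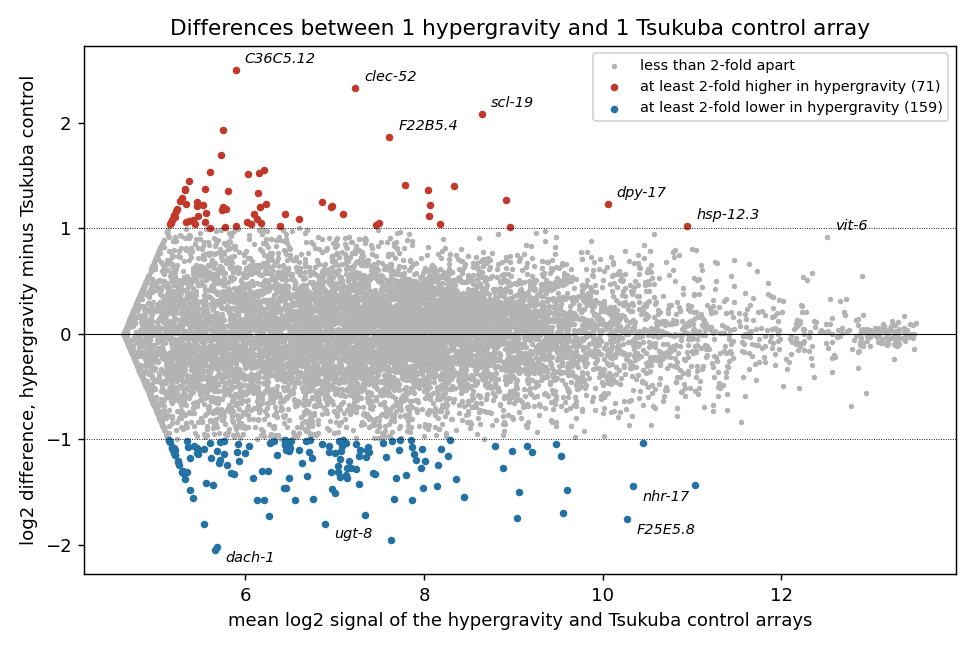
Log2 difference between the hypergravity and Tsukuba control arrays against the mean log2 signal of both, 1 point per gene for 10076 genes. The 71 genes at least 2-fold higher and the 159 at least 2-fold lower lie mostly at low and middle signals, and the slanted left edge comes from the floor of 24.9.

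Genes of the yolk, the oocyte and the germ line read higher under hypergravity as groups. All 5 measured vitellogenin genes, which encode the yolk proteins, were higher, with a median difference of 0.63 (log2), and 4 of them were at least 1.5-fold higher. *vit-6* read 8025 under hypergravity and 4250.2 in the Tsukuba control, a 1.89-fold difference, against 5271 in the operation-site control, 4181 in clinorotation and 5242 in space flight. The hypergravity array was thus the highest of the 5, and the 4 others lay close together. *vit-5* read 2699 and 1541, *vit-4* 2730.0 and 1797, *vit-2* 3344 and 2290.0, and *vit-1* 184 and 118.9, hypergravity first in each pair. In the operation-site control these 4 genes read 1503, 1753, 2784 and 82.7, so that hypergravity was above both controls for every vitellogenin. Over all measured genes 33.2% read above both controls and 32.7% below both. *rme-2*, which encodes the yolk receptor of the oocyte, read 1481 against 1075.

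Of 30 measured genes for RNA regulators that act in the germ line and on maternal messages, 29 were higher, with a median of 0.55 and 14 members at least 1.5-fold higher. None was at least 1.5-fold lower. *oma-2*, which encodes a zinc-finger protein needed for oocyte maturation, read 1944 against 1124 in the Tsukuba control, with 1205, 1352 and 1506 in the operation-site control, clinorotation and space flight. *puf-5*, an RNA-binding repressor of the oocyte, read 2321 against 1354, and *mex-3*, a KH-domain regulator of the early embryo, read 1183 against 691. The stem cell regulators *fbf-1* and *fbf-2* were 1.74-fold and 1.65-fold higher, with 145 for *fbf-1* at the operation site against 158 under hypergravity. *gld-3* was 1.80-fold higher and *fog-1*, which promotes the sperm fate, 1.88-fold, but both were nearly as high in the operation-site control, at 168 and 194. The operation-site control was higher than Tsukuba for this group as well, by a median of 0.20. The probe sets of *oma-2*, *puf-5* and *mex-3* may bind more than 1 transcript. A second probe set of *oma-2* was at 0.48 (log2) against 0.79 at the first, and that of *mex-3* at 0.76 against 0.78. The second of *fbf-2* was higher, at 0.83 against 0.72, and those of *gld-3* were at 0.57 and 0.94 against 0.85.

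Components of germ granules, the RNA-rich bodies of germ cells, followed the same direction in 17 of 18 genes, with a median of 0.53. *deps-1*, a granule component, read 939.8 under hypergravity against 532 at Tsukuba and 533 at the operation site, while clinorotation gave 593 and space flight 811. Both controls were nearly equal for this gene, and hypergravity and space flight were higher. The helicase gene *cgh-1* read 2303 against 1387, and *cey-2*, a cold-shock domain protein of the germ line, 3621 against 2234. A second probe set of *cgh-1* was at 0.42 (log2), against 0.73 at the first. *pgl-2* was 1.74-fold higher than at Tsukuba but read higher still at the operation site, at 124 against 94.5.

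All 13 oocyte markers were higher, by a median of 0.43, and their summed signal was 31680.4 under hypergravity against 23764 at Tsukuba and 28641 at the operation site. All 13 also belong to other lists, so they are not a separate set. Markers of the mitotic and meiotic germ line were higher in 11 of 12 genes, by a median of 0.33. The operation-site control stood farther above Tsukuba for these markers, by 0.45, and they summed to 6424 there against 5978 under hypergravity. All 3 measured embryo markers were higher, summing to 437 against 364. Of 17 eggshell and egg surface genes 16 were higher, by a median of 0.33. *cbd-1*, for a chitin-binding protein of the vitelline layer, read 3123 against 1964, and *egg-6* was 1.67-fold higher. Their probe sets may bind more than 1 transcript. Second probe sets were at 0.24 (log2) for *cbd-1* and 0.46 for *egg-6*, against 0.67 and 0.74 at the first. Major sperm protein genes were higher than at Tsukuba in 27 of 32 cases, by a median of 0.28, and 5 were at least 1.5-fold higher. The operation-site control stood 1.90 above Tsukuba for them on the same scale. The part of oocyte number in the higher maternal genes was not tested.

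Genes of chromosome duplication and division also read higher. Of 35 DNA replication genes 34 were higher, with a median of 0.35, and 7 were at least 1.5-fold higher against a background of 6.8%. *mcm-3*, a subunit of the replicative helicase, read 529 against 309.9, and *mcm-2* 629 against 411. The GINS subunit genes *psf-1* and *psf-2* were 1.63-fold and 1.62-fold higher. *orc-3*, for a subunit of the origin recognition complex, read 51.9 while both controls were at the floor, so that it was at least 2.08-fold higher. It was the only 1 of the 35 at or past 2-fold.

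Cell cycle genes were higher in 28 of 29 cases, by a median of 0.43, and 24 of the 29 were above both controls. *cdc-25.1*, the phosphatase gene that drives germ cell proliferation, read 539 under hypergravity, 286 at Tsukuba, 291 at the operation site, 376 in clinorotation and 447 in space flight. The controls were nearly equal and every treated array was higher. *cyb-3*, for a B-type cyclin, read 2754 against 1753, although its probe set may bind related transcripts. A second probe set of *cdc-25.1* was at 0.37, against 0.91 at the first. Between the controls the median of cell cycle genes was 0.00, with members on both sides of it.

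In DNA damage response and repair, 27 of 32 genes were higher, with a median of 0.36, but the operation-site control stood 0.31 above Tsukuba too. *ung-1*, a uracil-DNA glycosylase gene, read 204 against 117, and *msh-2*, for a mismatch repair protein, 345 against 222. Meiotic chromosome genes were higher in 24 of 29 cases by 0.30, again with the operation-site control above Tsukuba, by 0.37. *zim-3*, for a zinc-finger protein of meiotic pairing centres, was the member farthest apart at 112.1 against 44.4, a 2.52-fold difference, while the 3 other arrays read 87.7, 89.1 and 115. The Tsukuba array was the lowest of the 5 for this gene.

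Argonaute and RNA interference genes were higher in 29 of 36 cases, by a median of 0.25, with 6 higher by 1.5-fold or more and 1 lower by as much. The operation-site control stood as far above Tsukuba for this list, by 0.30. The members farthest above Tsukuba act on small RNAs in the germ line. *wago-1* read 1136 against 664, *hrde-1*, for a nuclear argonaute, 923 against 545, and *csr-1* 540.4 against 327, with 496 for *csr-1* at the operation site. *tofu-4*, which is not in this list and is named for a role in making the germline small RNAs called piRNAs, read 89.6 against 34.9. It read 83.0 in the operation-site control. Linker histone genes were among the histones farthest up, with *hil-2* at 631 against 328, whereas *his-71*, for an H3.3-type histone, was lower at 412 against 689. Proteasome genes were higher in 30 of 36 cases by a small median of 0.23, and 1 of them passed 1.5-fold.

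**Figure D2:**
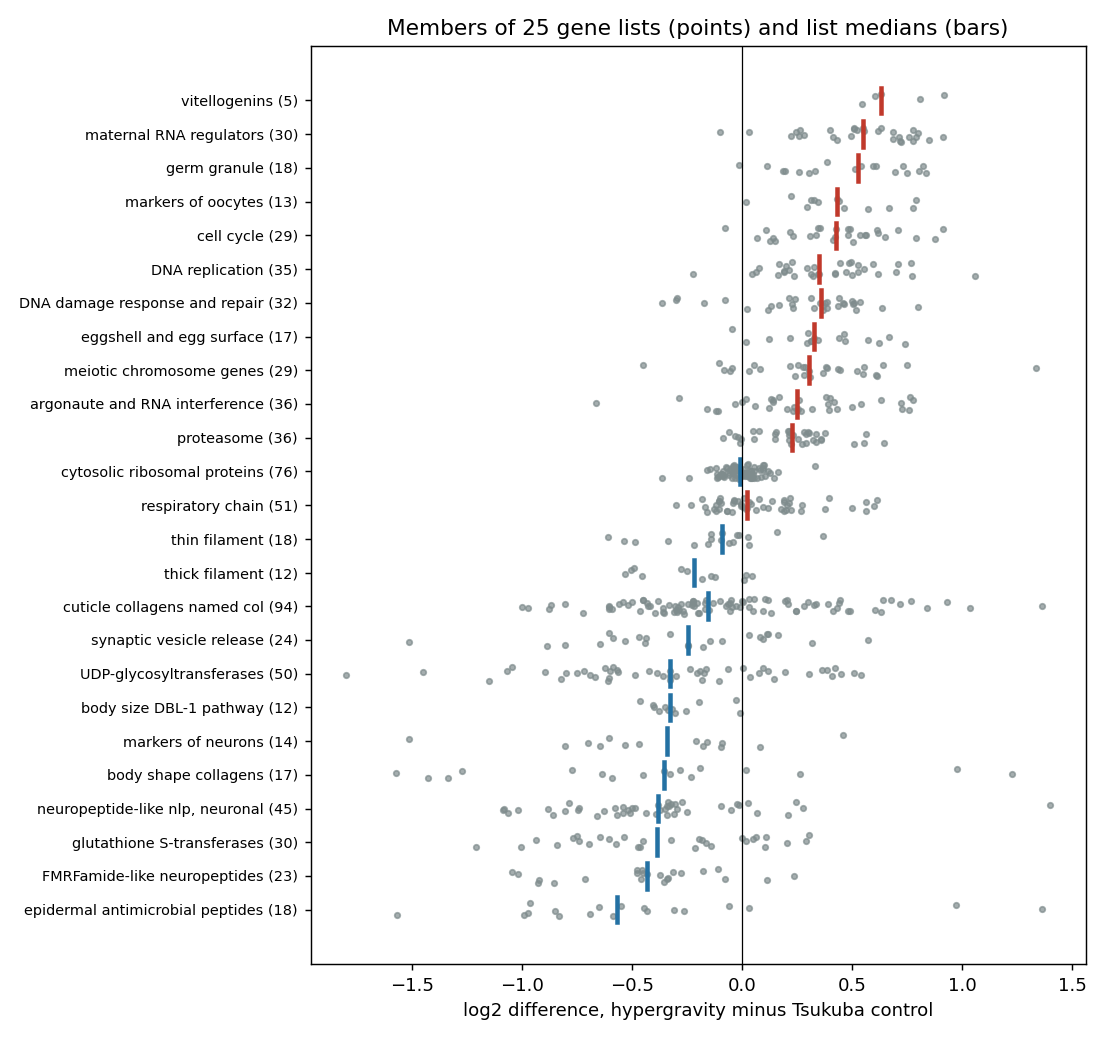
Log2 difference between hypergravity and the Tsukuba control for the measured members of 25 gene lists, 1 point per gene, with a bar at each list's median and the number of members in parentheses. Germ line, oocyte and cell division lists lie to the right of 0, neuropeptide, glutathione S-transferase and epidermal antimicrobial lists to the left, and ribosomal protein genes close to 0. The 25 lists were picked for this plot after their values were seen.

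Neuronal genes read lower under hypergravity, and the lists with the lowest medians among them were precursors of signalling peptides. Of 23 FMRFamide-like peptide genes 21 were lower, with a median of -0.43, and 6 were at least 1.5-fold lower against a background of 9.26%. *flp-18* read 497 under hypergravity against 1025 at Tsukuba and 1398, 1175 and 876 in the operation-site control, clinorotation and space flight. Hypergravity was the lowest of the 5 arrays for it. *flp-4* read 139.9 against 283, and *flp-11*, whose peptides are known for a role in sleep, 444 against 845. *flp-32* was also low in the operation-site control, at 134, so its 1.90-fold difference from Tsukuba is matched by a control.

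Of 45 other neuropeptide-like genes with neuronal roles 39 were lower, with a median of -0.38, and 12 were at least 1.5-fold lower. Hypergravity lay below both controls in 37 of them. *nlp-14* read 93.4 against 195, *nlp-11* 356 against 646, and *pdf-1*, for a pigment-dispersing factor peptide, 411 against 716. The genes *nlp-2*, *nlp-89* and *nlp-91* were each past 2-fold but close to the floor, with 30.1 and 28.7 for *nlp-2* and *nlp-89* under hypergravity. *nlp-39* went the other way, at 524 against 199, with 54.9 in the operation-site control. Genes of peptide processing and dense core vesicles were lower too, in 11 of 13 cases by a median of -0.25. *egl-3*, for the proprotein convertase that cuts the precursors, read 1764 against 2859.6 at Tsukuba, 3044 at the operation site, 2908 in clinorotation and 2149 in space flight. A second probe set of *egl-3* was at -0.11 (log2), against -0.70 at the first.

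The general neuron markers were lower in 12 of 14 cases, by a median of -0.34, and summed to 8711 under hypergravity against 11077 at Tsukuba and 12061 at the operation site. Of these 14 genes 12 are also members of other lists. *snt-1*, for the vesicle calcium sensor synaptotagmin, was the farthest apart at 75.8 against 216, a 2.86-fold difference, with 171, 158 and 129 on the 3 other arrays. Its probe set may bind more than 1 transcript, and a second probe set was at -0.96 against -1.51. *ric-4*, for the SNAP-25 protein of vesicle fusion, read 241 against 420.3, and *unc-64*, for syntaxin, 195 against 305. The marker *unc-119* read higher instead, at 101 against 73.3. The part of neuronal RNA content in the lower peptide genes was not tested.

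Lists of transmitter genes were lower too, each with members that were higher. Of 18 genes of glutamate signalling 16 were lower, by a median of -0.29, and 7 were at least 1.5-fold lower. *glc-1*, for a glutamate-gated chloride channel, read 130.3 against 259, and *glt-1*, for a glutamate transporter, 182 against 334. Acetylcholine genes were lower in 15 of 20 cases by -0.27, and 5 were at least 1.5-fold lower, such as *lev-10*, for a protein that clusters acetylcholine receptors, at 160.2 against 265. The cholinergic genes *cha-1* and *unc-17*, which encode the enzyme that makes acetylcholine and its vesicular transporter, read 42.2 against 36.3 and 53.7 against 58.6. These signals were dim. Another probe set of *cha-1* was at the floor under hypergravity against 50.8 at Tsukuba, a log2 difference of -1.03 or lower, and those of *unc-17* were at -0.56 and -0.27 (log2). GABA genes were lower in 8 of 10 cases and dopamine and serotonin genes in 10 of 17. *cat-4*, which encodes an enzyme for the cofactor of dopamine and serotonin synthesis, was lower at 220.4 against 442. *tdc-1* and *tbh-1*, whose enzymes make tyramine and octopamine, were higher at 371 against 219 and 571 against 389.8, but a second probe set of *tdc-1* was at 0.08. Among mechanosensory channel and touch genes 24 of 31 were lower, by a median of -0.22. *mec-4*, for the channel subunit of the touch receptor neurons, read 35.9 against 61.3, but the operation-site control was as low, at 35.9.

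**Figure D3:**
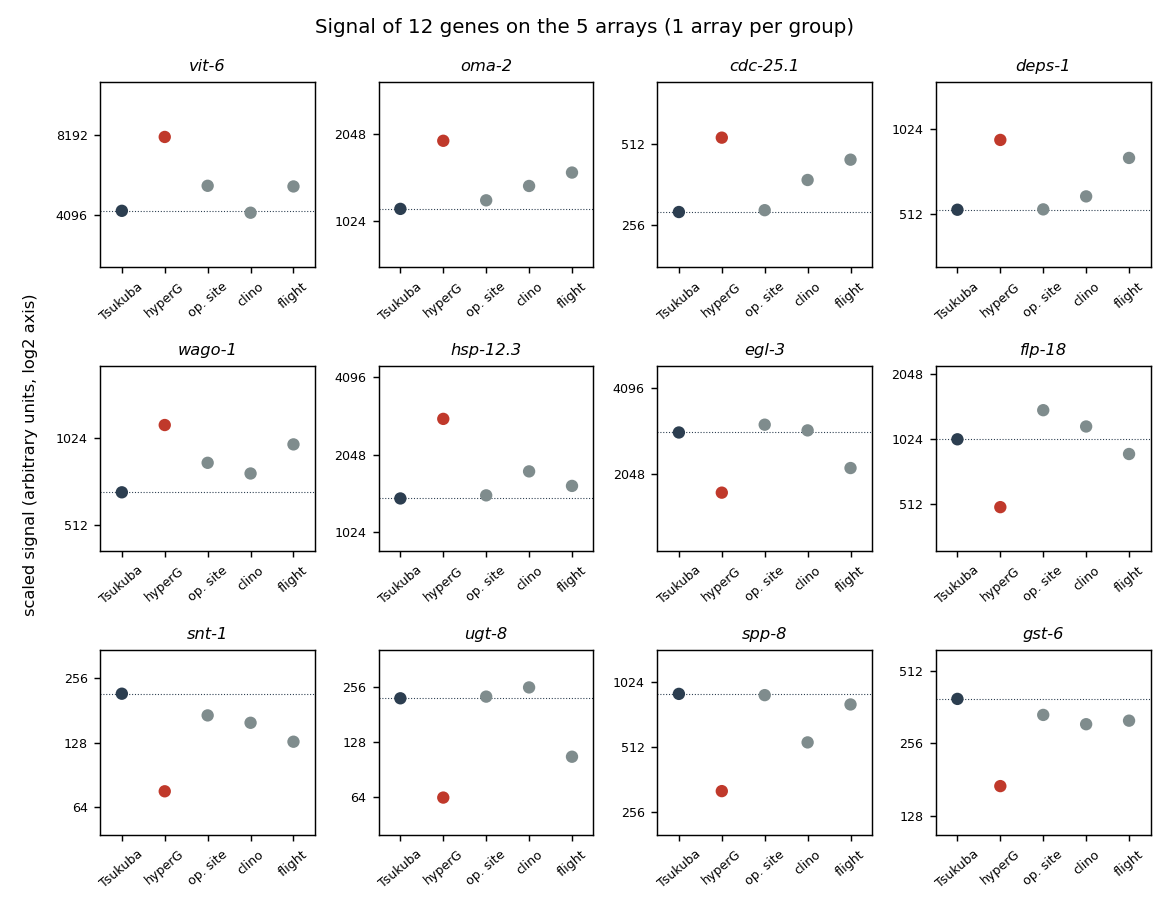
Scaled signal of 12 genes on the 5 arrays, 1 array per group, on log2 axes, with the Tsukuba control in dark blue, hypergravity in red, the 3 other arrays in grey and a dotted line at the Tsukuba value. Hypergravity is the highest array for the first 6 genes and the lowest for the other 6, which were picked for the plot after their values were seen.

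Genes of the DBL-1 pathway, a TGF-beta type signal that sets body size, were lower in all 12 measured members, by a median of -0.33, and hypergravity was below both controls in all 12. The differences were small, and none reached 1.5-fold. The receptor genes *sma-6* and *daf-4* read 139 against 171 and 149 against 188. The transcription factor gene *sma-9* read 444 against 565. *lon-1*, which this pathway represses, was lower as well, at 323 against 445. Insulin-like peptide genes were lower in 11 of 15 cases by -0.29, led by *ins-33* at 80.4 against 144 and *ins-35* at 428 against 763.

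Cuticle genes split into genes that were higher and genes that were lower. Of 17 body shape collagens, whose mutants are short, rolling or otherwise misshapen, 7 were at least 1.5-fold lower and 2 at least 1.5-fold higher. *rol-6* read 94.4 under hypergravity against 253 at Tsukuba and 268 at the operation site, while clinorotation gave 160.1 and space flight 128. *sqt-1* read 87.6 against 221 at Tsukuba, with 259.6, 163 and 195 on the 3 other arrays. For *sqt-2* the signals were 42.8 against 127, and for *dpy-5* 161 against 389, with 151 and 591 at the operation site. Hypergravity was the lowest of the 5 arrays for each of these 4 collagens, which were 2.42-fold to 2.97-fold lower than at Tsukuba. The probe sets of *sqt-1* and *dpy-5* may bind related transcripts.

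The opposite pattern came from cuticle genes that differed widely between the controls. *dpy-17* read 1629 against 696 at Tsukuba and 923 in clinorotation, whereas the operation-site control and space flight read 53.9 and 73.6. *dpy-14* read 916 against 465, and was at the floor in the operation-site control. *col-165* read 424 against 164.8, with 44.4 at the operation site. *cut-3*, for a cuticlin, read 409.9 against 176 and was at the floor on the operation-site and space flight arrays. For these 4 genes hypergravity was the highest array, yet the controls lay farther from each other than hypergravity did from Tsukuba.

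Of 19 moulting genes 14 were lower, by a median of -0.21, among them *qua-1* at 32.6 against 54.8. The operation-site control was below Tsukuba for this list too, by a median of -0.17. *mlt-10*, 1 of the 5 that were higher, read 61.3 against 25.04, close to the floor at Tsukuba. The chitinase gene *cht-5*, which is not in this list, read 95.3 against 29.4, with a second probe set at 1.52 against 1.70. *phy-2*, for a prolyl 4-hydroxylase that modifies collagen, was 2.06-fold higher. *dpy-31*, for a protease that trims procollagen, was 1.64-fold lower, though 1 of its 2 other probe sets differed in the opposite direction. Of 94 measured collagens named *col*, 10 read higher by 1.5-fold or more and 10 lower by as much, with a median of -0.16. The shares over all measured genes were 6.8% higher and 9.26% lower. *col-19*, a collagen of the adult cuticle, read 251 against 123, but 332 at the operation site. Markers of seam cells, the epidermal cells along the sides, were lower in 5 of 6 cases and summed to 2749.7 against 4207 at Tsukuba and 2259 at the operation site. The part of the stage mix in the cuticle differences was not tested.

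**Figure D4:**
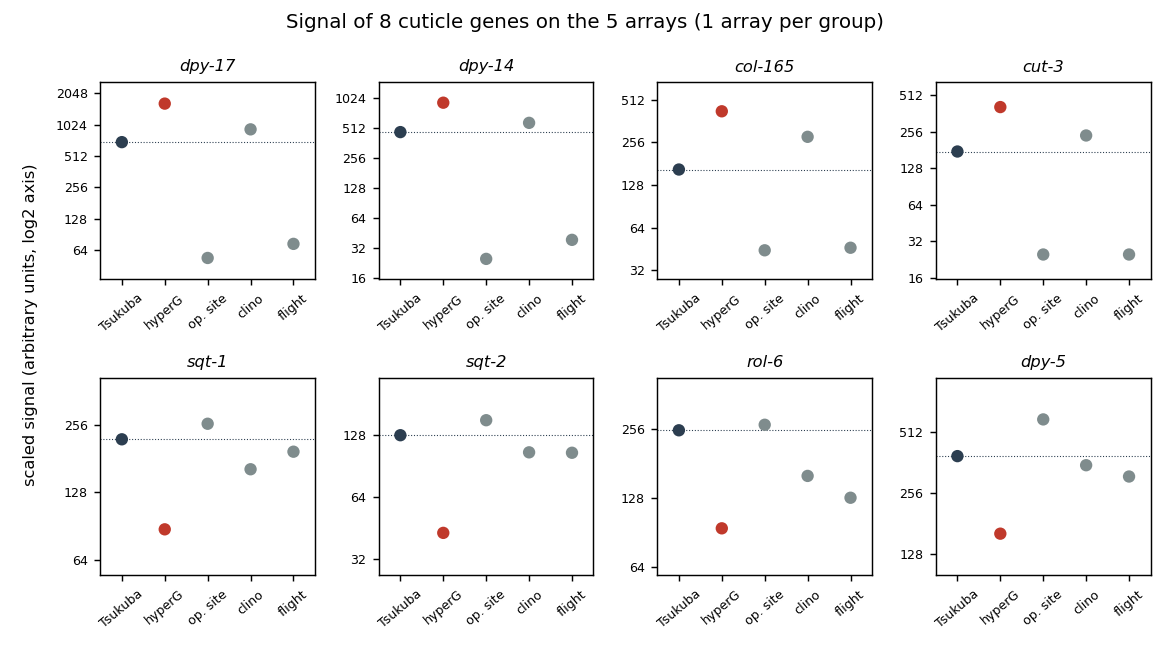
Scaled signal of 8 cuticle genes on the 5 arrays, 1 array per group, on log2 axes, with colours as for the plot of 12 genes and a dotted line at the Tsukuba value. In the upper row hypergravity is highest and the operation-site control and space flight are far below Tsukuba, and in the lower row hypergravity is lowest of all 5. The 8 genes were picked for the plot after their values were seen.

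Antimicrobial genes of the epidermis had a median of -0.57, which became -0.26 without probe sets that may bind several transcripts. Of 18 measured members 15 were lower, 9 at least 1.5-fold lower and 2 at least 1.5-fold higher. The shares over all measured genes were 9.26% lower and 6.8% higher by as much. *nlp-31* and *nlp-30*, whose peptides are induced by fungal infection and wounding, read 217 against 426 and 68.6 against 134, but space flight was about as low or lower, at 226 and 54.6. *fipr-24* read 62.7 against 186, and the caenacin gene *cnc-3* 101 against 179. *cnc-6* went the other way, at 129 against 65.5, and *nlp-26* read 64.1 with Tsukuba at the floor, at least 2.57-fold higher. The probe sets of *fipr-24*, *nlp-30*, *nlp-31* and *cnc-3* may bind related family members.

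Defence and digestive genes, many of them active in the intestine, were lower in most cases, with C-type lectins as an exception. Lysozyme and saposin-like genes were lower in 22 of 28 cases by a median of -0.32. *spp-8*, for a saposin-like protein, read 319 under hypergravity, 904 at Tsukuba, 892 at the operation site, 537 in clinorotation and 807 in space flight. A second probe set of *spp-8* was at -1.06, against -1.50 at the first. Genes of intestinal proteases, lipases and esterases were lower in 32 of 40 cases, by a median of -0.24, with 9 at least 1.5-fold lower. *ges-1*, the gut esterase gene, read 145 against 277, and *cpr-3*, for a cathepsin B-like protease, 131 against 267. C-type lectins showed no common direction, with 37 of 60 higher and a median of 0.09. *clec-52* was 5.04-fold higher, at 337 against 66.8, while the operation-site control was at the floor and space flight read 40.9. *clec-17* read 153 against 421. The 16 intestine markers as a whole had a median of -0.07, and their summed signal, 33496 against 29210.1, includes yolk genes.

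Among genes for enzymes of detoxification, glutathione S-transferases and UDP-glycosyltransferases were lower as groups. Glutathione S-transferase genes were lower in 21 of 30 cases by a median of -0.39, and 10 were at least 1.5-fold lower. None was at least 1.5-fold higher. The operation-site control was below Tsukuba for this list too, by a median of -0.25. Summed signals were 8546 under hypergravity, 10893 at Tsukuba and 8216 at the operation site. *gst-6* read 169.9 against 393 at Tsukuba, with 337, 308 and 319 on the 3 other arrays, so that hypergravity was the lowest. *gst-4*, a known target of the stress regulator SKN-1, read 163.9 against 328, and *skn-1* itself 433 against 669. UDP-glycosyltransferase genes were lower in 35 of 50 cases by -0.33, with 17 at least 1.5-fold lower, 5 of them at least 2-fold, and none at least 1.5-fold higher. *ugt-8* read 63.8 under hypergravity against 222 and 227 in the 2 controls, 254 in clinorotation and 107 in space flight. *ugt-66* was 2.73-fold lower at 171 against 467. Cytochrome P450 genes were less one-sided, with 26 of 43 lower, 17 higher and a median of -0.10. Of the 43, 10 were at least 1.5-fold lower and 3 higher by as much, against 9.26% and 6.8% of all measured genes. *cyp-37B1* was 2.03-fold lower at 94.4 against 192, and *cyp-33A1* 2.66-fold higher at 359 against 135.

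The 12 measured inducible heat shock genes stayed within 1.5-fold of the Tsukuba control apart from members of 1 family. Of 50 constitutive and organelle chaperone genes, *cct-8* and *dnj-27* were 1.83-fold and 1.72-fold higher, and none was at least 1.5-fold lower. *hsp-75* and *hsp-4*, which belong to these 50, were 1.47-fold and 1.43-fold lower. *hsp-70*, *hsp-16.2* and *hsp-16.41*, inducible chaperone genes, read 7877, 5589 and 3664 against 8000.3, 6148 and 3850.3 at Tsukuba. Both arrays were far above the operation-site control for these genes, which gave 1769.7, 269.5 and 127. The small heat shock gene *hsp-12.3* read 2814 against 1384 at Tsukuba, 1423 at the operation site, 1762 in clinorotation and 1548 in space flight. *hsp-12.6* read 1896 against 1058, and *hsp-12.1* 73.2 against 44.9. *hsp-12.2* was 1.32-fold higher than at Tsukuba and lower than at the operation site.

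Targets of DAF-16, the FOXO factor of insulin signalling, had a median of 0.05 with no common direction. *sod-3*, a mitochondrial superoxide dismutase gene and a standard DAF-16 target, read 339 against 662, and hypergravity was the lowest of the 5 arrays. *mtl-1*, a metallothionein gene that is also a target, read 4744 against 4407, with 5933 at the operation site. *daf-16* itself read 544 against 737, but the operation-site control was as low, at 524, and its 3 other probe sets were at -0.27, -0.19 and -0.09. Of 10 hypoxia genes 2 were at least 2-fold lower, *rhy-1* at 55.8 against 144 and the carbonic anhydrase gene *cah-4* at 308 against 642, but both were lower still at the operation site, at 48.0 and 128. Among genes of water and osmolyte balance, the water channel gene *aqp-1* read 203 against 528, and *gpdh-1*, for an enzyme of glycerol synthesis, 198 against 359.7. In the operation-site control, clinorotation and space flight *aqp-1* read 293, 382 and 247, all below Tsukuba, and *gpdh-1* read 605, 199 and 263. Clinorotation was thus about as low as hypergravity for *gpdh-1*.

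Muscle genes were lower by small amounts in most cases. At the probe sets used here none of the 12 thick filament genes was at least 1.5-fold apart, and their median was -0.22 with 9 lower. The body wall myosin genes *unc-54* and *myo-3* read 2107 against 2044 and 306 against 333. *unc-15*, for paramyosin, read 2385 against 2706. The giant sarcomere protein genes *unc-22*, *ttn-1* and *unc-89* read 81.2, 135 and 349 against 111, 191 and 423, and hypergravity was below both controls for all 3. Other probe sets of these genes gave other sizes. That of *ttn-1* read 83.7 against 185, a difference of -1.14 (log2), and that of *myo-1*, a pharyngeal myosin gene, -0.64, both past 1.5-fold. A second probe set of *unc-22* and one of *mlc-3*, a myosin light chain gene, differed by 0.17 and 0.08 in the opposite direction. At the brightest probe sets, the pharyngeal myosin genes *myo-1* and *myo-2* read 296 against 427 and 189 against 208. Of 18 thin filament genes 1 passed 1.5-fold, the troponin gene *tni-1* at 385 against 587, and it was lower still at the operation site, at 262. Genes of muscle calcium handling were lower in 10 of 14 cases, by a median of -0.27, and hypergravity was below both controls in 10. *unc-68*, for the ryanodine receptor, read 150.1 against 235, with a second probe set at -0.61, and *cca-1*, for a calcium channel, 26.5 against 41.4. Of 22 dense body and attachment genes 16 were lower, by a median of -0.11, and the operation-site control was lower than Tsukuba too, by -0.18. *uig-1* passed 1.5-fold at 169 against 287, but a second probe set was at -0.06, against -0.77 at the first. Markers of body wall muscle were lower in 11 of 12 cases, by a median of -0.17, and summed to 14486 against 15951. The muscle factor gene *hlh-1* was at the floor on both arrays.

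Genes of basic metabolism and protein synthesis were close to the Tsukuba control. None of 76 cytosolic ribosomal protein genes was at least 1.5-fold apart, and their median was -0.01. The 51 respiratory chain genes had a median of 0.02, 15 glycolysis genes -0.02, and 55 mitochondrial ribosomal protein genes 0.08. Translation factor genes were higher in 29 of 37 cases by 0.19, and the members farthest apart include *ife-5*, a germline form of the cap-binding factor, at 85.3 against 42.9, with 83.2 at the operation site. Of the tubulin genes, *tba-2* and *tbb-1* were 1.40-fold and 1.42-fold higher, and *tbb-6* was 2.53-fold lower at 139.7 against 353.

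Several of the single genes farthest from the Tsukuba control belong to none of the groups above. *C36C5.12* read 141 with Tsukuba at the floor, at least 5.67-fold higher, and the 3 other arrays read 42.5, 90.05 and 30.1. *F22B5.4* read 373 against 102, with 83.0 at the operation site, 75.8 in space flight and 432 in clinorotation, which was higher than hypergravity. It lies next to *cut-3* among the measured genes of its chromosome, and both were past 2-fold. *scl-19*, for a secreted protein of the SCP family, read 824 against 195, and the neighbouring genes *F35E8.6* and *F35E8.7* 105.4 against 27.7 and 127 against 43.2. For *scl-19* the operation-site control and space flight read 743 and 1347, and for *F35E8.6* 263 and 764. *F35E8.7* read 125 at the operation site. Tsukuba was the lowest of the 5 arrays for *scl-19* and *F35E8.6*.

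On the lower side, *dach-1* read 25.4, just above the floor, against 103.1 at Tsukuba, 69.6 at the operation site, 102 in clinorotation and 29.8 in space flight. *T16A1.4* was at the floor under hypergravity against 103.4, at least 4.15-fold lower, and it was at the floor in the operation-site control as well. *nssp-72* was at the floor under hypergravity alone, with 86.9 at Tsukuba and 100.02, 116 and 83.8 on the 3 other arrays. *F25E5.8* read 673 against 2276, and the nuclear receptor gene *nhr-17* 786 against 2143. Both were lower at the operation site than under hypergravity, at 511 and 83.8. Of 134 receptor genes named *nhr*, 5 were at least 2-fold lower, whereas *nhr-91* was 2.90-fold higher, at 83.1 against 28.7. Over all measured genes, 1.58% were at least 2-fold lower and 0.705% higher by as much.

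Some of the lower genes are neighbours in the genome. *T20D4.11*, *T20D4.12* and *T20D4.15* stand next to each other among the measured genes and read 160.5 against 338, 54.4 against 162 and 25.11 against 61.8. *T28A11.2*, *F35F10.5*, *F35F10.6* and *F35F10.7* form a second run of 4. Of these, *T28A11.2* and *F35F10.5* were at the floor under hypergravity against 61.7 and 59.1 at Tsukuba. *F35F10.6* and *F35F10.7* read 43.1 against 94.1 and 40.5 against 88.3. The operation-site control was low as well for *T28A11.2*, *F35F10.6* and *F35F10.7*, at 29.8, 48.06 and 49.9.

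Genes with more than 1 probe set allow the same arrays to be read a second time, which is not a replicate of the worms. Over 2641 other probe sets of 2266 genes, the difference at the brightest probe set and at the other correlated at r = 0.575 across probe sets, and the median gap between them was 0.20 (log2). Of 7 higher genes with another probe set all 7 differed in the same direction there, 3 by at least 1.5-fold and 1 by at least 2-fold. Of 15 lower genes 14 did so, 9 by at least 1.5-fold and 4 by at least 2-fold. Over all genes the direction was shared by 1873 of the 2641 other probe sets, with 326 past 1.5-fold and 45 past 2-fold.

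**Figure D5:**
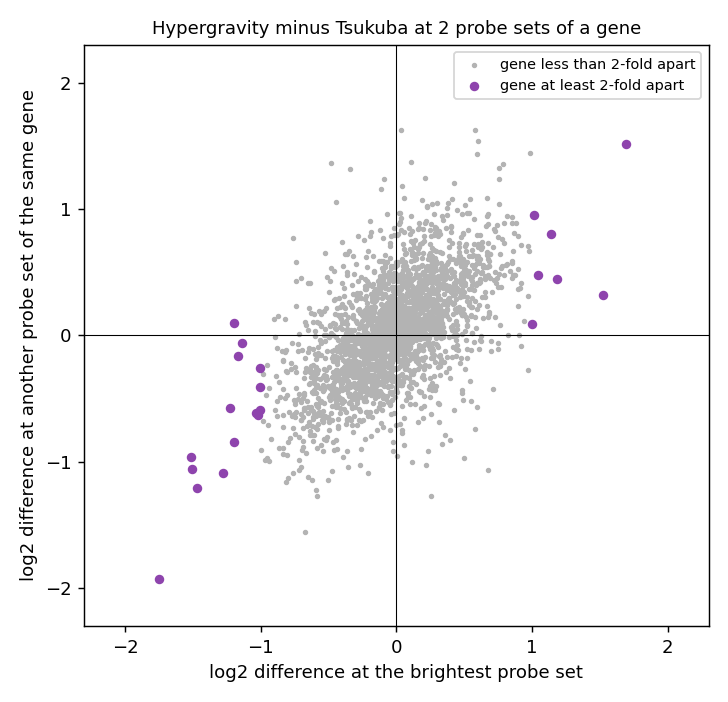
Log2 difference between hypergravity and the Tsukuba control at the brightest probe set of a gene (horizontal axis) and at another probe set of the same gene (vertical axis), 2641 points. Purple points belong to genes at least 2-fold apart at the brightest probe set, and 1 of the 22 lies on the opposite side of 0.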

How the data were processed

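Signals of 22548 probe sets on 5 one-colour Affymetrix arrays, 1 per group, were used as deposited by the authors, as intensities on a linear scale. Neither the software nor the summary of probe cells is given in the sources used here. The platform annotation from GEO gave gene names: 20766 probe sets carried 1 symbol, 887 several and 895 were not listed. Of 17118 symbols 17085 stood unchanged in the RefSeq gene table, which gave names and neighbours only. The 5 arrays were quantile scaled on the log2 scale, signals under the 40th percentile (24.9) were raised to it, and the brightest probe set of a gene was kept. Genes with a mean log2 signal above the floor, 10076 of them, were compared by log2 difference with Python 3.11.15, pandas 2.3.3 and numpy 2.4.6. A group of 1 array allows no test. The single arrays limit the precision of every value. Counts use 2-fold and 1.5-fold.

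Named genes are, per direction, up to 15 above the floor, up to 6 at the floor, the members farthest apart in each of 78 gene lists and 18 marker lists, some genes regardless of value, and families or neighbours with 3 or more genes past 2-fold. *F22B5.4* and *cut-3* were singled out as neighbours with their values already seen. The comparison and lists were chosen with earlier results of these data known. The computation was tested on simulated data. Promoter sequences were not analysed here.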

Additional observations from a re-analysis of the deposited data

Results flagged for a closer look

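Probe sets that name no single gene were left out of the comparison. Of 655 such probe sets with a mean signal above the floor, 13 (1.98%) read at least 2-fold higher under hypergravity than at Tsukuba and 15 (2.29%) at least 2-fold lower, with a median difference of 0.05 (log2). The differences ran from -1.94 to 3.30. They drew attention because they hold differences in data that no count of genes includes.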

How the results depend on the processing

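The counts of 71 higher and 159 lower genes depended most on the scaling and the floor. Dividing each array by its median gave 115 higher genes, 69 of them among the original ones, and kept the lower count within 1.5 times. Signals as deposited gave 757 and 32, keeping all 71 higher genes and 32 of the 159 lower ones. A floor at the 30th percentile gave 161 and 262, a floor at the 50th percentile 35 higher genes, and log2 of the signal plus 16 without a floor 43 and 100. The remaining alternatives gave 59 to 75 higher and 125 to 160 lower genes: scaling of the 2 arrays alone, the median over probe sets of a gene, no probe sets that may bind several transcripts, only genes above the floor on both arrays, and no filter on dim genes. Relative to the median of all genes under the same setting, the median of FMRFamide-like peptide genes ran from -0.44 to -0.37, that of UDP-glycosyltransferases from -0.35 to -0.24, that of maternal RNA regulators from 0.50 to 0.61 and that of cell cycle genes from 0.35 to 0.53. Others moved more: epidermal antimicrobial genes ran from -0.65 to -0.26, glutamate genes from -0.43 to -0.17 and acetylcholine genes from -0.38 to -0.14. The medians of 13 lists changed sign when arrays were divided by their medians, among them collagen processing, glycolysis, dense body and attachment genes, and actins and tubulins. No paired analysis was possible because each group has 1 array, and for the same reason no replicate could be left out. Dim genes are limited by the floor, which leaves only a bound where 1 array lies at it.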
